A study of Homo sapiens with 8 samples.

Results

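The open chromatin of NCI-H295R cells after an EZH2 inhibitor was set directly against that after a CBP inhibitor, without a control list choosing the regions. The members are all 88247 ATAC-seq peaks of the 2 inhibitor lists, of 200358 peaks in 4 lists, and they come from 4 of the 8 libraries of the series. The EZH2 inhibitor list (EZH2i) held 41086 peaks and the CBP inhibitor list (CBPi) 47161. A peak was called private when no peak of the other inhibitor list covered even 1 bp of it, and shared otherwise. NCI-H295R is an established line of human adrenocortical carcinoma, and ATAC-seq marks open chromatin through the sites where the transposase Tn5 inserts adapters. Cells were kept for 96 h in EPZ-6438 at 62 µM (EZH2i) or in PRI-724 at 26 µM (CBPi), which the labels call the IC-50 of each drug, so the molar doses differ while the exposure is the same. The groups used only for reference were 96 h of DMSO (vehicle) and 48 h of DMSO followed by 48 h of 10 µM forskolin (FSK). Every group had 2 libraries, labelled biological replicates of this 1 cell line, and 1 deposited peak list. No value below therefore has a replicate error, no difference was tested against replicates, and the read depth is unknown. The 95% intervals given with shares are Wilson intervals; they count every peak as a separate draw and reflect counting error alone.

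EZH2 is the enzyme of Polycomb repressive complex 2 that methylates lysine 27 of histone H3, a mark of silenced developmental genes. CBP, encoded by CREBBP, acetylates histones, the same lysine included, and serves as a coactivator for many transcription factors, among them β-catenin, whose contact with CBP is the reported target of PRI-724. NCI-H295R cells carry an activated β-catenin and make steroids under the control of the nuclear receptor SF1, encoded by NR5A1. Histone marks were not measured in these libraries.

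The cell type given in the labels was checked at the promoters of marker genes. A promoter-region peak is one that reaches within 1 kb of an annotated transcription start of a protein-coding gene, or of either gene end where no start was in the table used. Over all 19970 protein-coding genes, 65.6% had such a peak in both lists. It was present in both at 11 of 19 steroidogenic genes, among them STAR, which moves cholesterol into mitochondria, CYP11A1, which cleaves its side chain, and CYP17A1. Neither list had one at the other 8, including the ACTH receptor gene MC2R, CYP21A2 and HSD3B2. Of 15 adrenal regulators 11 had one in both lists, NR5A1, NR0B1 and GATA6 among them, and GATA4, NR5A2, TCF21 and WT1 had one in neither. Of marker genes of other cell types, 3 of 16 immune, 2 of 14 endothelial, 6 of 15 fibroblast and 6 of 13 chromaffin genes had one in both lists. Of the catecholamine enzyme genes, TH, DBH and PNMT had one in neither and DDC had one in both. The other chromaffin genes with one in both lists were CHGA, CHGB, SYP, SCG2 and SYT1. The genes of the drug targets had one in both lists: EZH2, CREBBP, its paralogue EP300, and CTNNB1, which encodes β-catenin.

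Promoters give examples of peaks found with 1 drug and not with the other. The sequences shown are the 250 bases before an annotated start, 5′ to 3′ on the gene's strand, from RefSeq on GRCh38.p14, with every CpG dinucleotide in capitals. They were chosen after their values were seen, as promoters that a peak covers in full. The first pair had a peak in the EZH2i list only. ABCA13, a lipid transporter gene (chr7:48171208-48171457, plus strand), has 2 CpG in these bases and lay under a peak of 586 bp. GALNTL6, a glycosyltransferase-family gene (chr4:171813154-171813403, plus strand), has 22 and lay under a peak of 818 bp. Both peaks were also in the vehicle and FSK lists. ABCA13 lies in a block of chromosome 7 from 45 to 55 Mb, described below, where 48.1% of EZH2i peaks were private.
ABCA13: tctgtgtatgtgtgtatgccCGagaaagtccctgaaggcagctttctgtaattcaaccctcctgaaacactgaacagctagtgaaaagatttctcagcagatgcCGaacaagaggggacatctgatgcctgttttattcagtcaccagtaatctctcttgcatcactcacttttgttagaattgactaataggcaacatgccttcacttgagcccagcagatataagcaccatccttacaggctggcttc
GALNTL6: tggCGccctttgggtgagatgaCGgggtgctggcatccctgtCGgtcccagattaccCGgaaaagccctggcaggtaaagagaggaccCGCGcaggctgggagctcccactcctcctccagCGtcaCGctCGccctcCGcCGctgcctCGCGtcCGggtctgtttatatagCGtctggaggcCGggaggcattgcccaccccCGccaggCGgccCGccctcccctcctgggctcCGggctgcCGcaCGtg

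The next pair had a peak in the CBPi list only. NEUROD1, a transcription factor gene of neurons and endocrine cells (chr2:181680518-181680767, minus strand), has 24 CpG and lay under a peak of 396 bp. AJUBA, which encodes a LIM-domain scaffold protein (chr14:22982552-22982801, minus strand), has 20 and lay under a peak of 1015 bp. These 2 peaks, too, were in both the vehicle and the FSK list. Of all 490 genes with a promoter-region peak in the CBPi list only, the vehicle list had one at 66.1% and FSK at 38.6%. For the 111 EZH2i-only genes the shares were 49.5% and 47.7%.
NEUROD1: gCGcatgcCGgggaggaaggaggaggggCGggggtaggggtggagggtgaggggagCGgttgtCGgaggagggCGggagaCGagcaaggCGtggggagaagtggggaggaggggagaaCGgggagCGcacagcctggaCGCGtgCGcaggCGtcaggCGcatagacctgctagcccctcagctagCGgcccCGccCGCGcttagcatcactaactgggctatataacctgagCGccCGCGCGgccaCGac
AJUBA: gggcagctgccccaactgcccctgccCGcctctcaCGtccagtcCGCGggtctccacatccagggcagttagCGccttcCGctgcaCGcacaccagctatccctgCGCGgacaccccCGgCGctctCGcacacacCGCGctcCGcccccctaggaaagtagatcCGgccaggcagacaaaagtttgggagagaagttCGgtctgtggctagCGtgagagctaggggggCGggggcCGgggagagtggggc

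The last 3 are promoters with a peak in all 4 lists, shown for contrast. They belong to EZH2 (chr7:148884292-148884541, minus strand, 38 CpG), CTNNB1 (chr3:41199255-41199504, plus strand, 34 CpG) and NR5A1 (chr9:124507400-124507649, minus strand, 9 CpG). Only 2.18% of EZH2i peaks and 1.93% of CBPi peaks had a larger area than the peak at the EZH2 start. The area is the authors' value for the whole peak, deposited as an area of significance, and it is used here only to rank peaks within a list. By this measure 89.7% of CBPi peaks were larger than the NEUROD1 peak and 36.0% than the AJUBA peak. For ABCA13 and GALNTL6 the figures were 38.3% and 42.5% of EZH2i peaks.
EZH2: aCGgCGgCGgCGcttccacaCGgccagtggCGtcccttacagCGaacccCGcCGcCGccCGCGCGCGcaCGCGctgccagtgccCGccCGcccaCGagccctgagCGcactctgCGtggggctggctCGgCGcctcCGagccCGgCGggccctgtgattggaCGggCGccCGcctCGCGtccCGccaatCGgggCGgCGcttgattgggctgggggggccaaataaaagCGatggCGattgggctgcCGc
CTNNB1: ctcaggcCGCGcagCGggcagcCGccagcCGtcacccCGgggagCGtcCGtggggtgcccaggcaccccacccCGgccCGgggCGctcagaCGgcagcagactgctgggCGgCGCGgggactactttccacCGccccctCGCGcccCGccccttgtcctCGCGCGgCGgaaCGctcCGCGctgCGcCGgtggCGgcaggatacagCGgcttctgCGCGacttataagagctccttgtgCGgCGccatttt
NR5A1: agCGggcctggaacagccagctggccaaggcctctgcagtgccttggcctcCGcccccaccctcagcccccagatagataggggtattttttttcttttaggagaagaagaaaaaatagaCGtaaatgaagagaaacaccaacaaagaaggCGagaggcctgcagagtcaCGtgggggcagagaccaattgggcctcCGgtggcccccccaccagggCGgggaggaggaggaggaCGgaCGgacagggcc

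The first question was how far the lists share their open regions. In the EZH2i list, 4591 of 41086 peaks were private (11.2%, 95% interval 10.9 to 11.5), and in the CBPi list 11045 of 47161 (23.4%, 23.04 to 23.80). The private peaks were the small ones. Their median width was 393 bp (EZH2i) and 370 bp (CBPi), against 639 and 730 bp for shared peaks. Of the private peaks, 173 (EZH2i) and 340 (CBPi) lay above the median area of their list, and 0 lay in its top decile. In the lowest decile of area, 39.5% of EZH2i peaks and 70.8% of CBPi peaks were private. The shared stretches covered 27.4 Mb, which is 86.9% of the bases of the EZH2i list and 74.7% of those of the CBPi list. From a private EZH2i peak the nearest CBPi peak was a median 21901 bp away, and 17.6% had none within 100 kb. From a private CBPi peak the median was 13291 bp, and 5.82% had none within 100 kb.

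The CBPi list is the longer, so the comparison was repeated with the 41086 CBPi peaks of largest area. The last peak kept had an area of 262.345 and the first left out had 262.341. The private counts were then nearly level: 6342 EZH2i peaks (15.4%, 15.1 to 15.8) and 6815 CBPi peaks (16.6%, 16.2 to 16.9). The step removed 6075 CBPi peaks, of which 4230 were private, and 1751 EZH2i peaks lost their only counterpart. Among the 20000 largest peaks of each list the private counts were 2201 and 2321, and among the 10000 largest 914 and 939. Set against the whole of the other list, 3 of the 10000 largest EZH2i peaks and 0 of the 10000 largest CBPi peaks (0 to 0.0384%) had no counterpart. With both lists cut to the same length, the private counts can differ only where a peak of either list overlaps several of the other. Their closeness thus follows from the cut itself, and no conclusion about the drugs is drawn from it.

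The 2 lists differed in where the private peaks lay. Promoter-region peaks made up 4.204% of private EZH2i peaks (3.66 to 4.82) and 8.23% of private CBPi peaks (7.73 to 8.76), against 35.8% and 35.6% of shared peaks. With lists of equal number the shares were 4.67% and 9.20%. Peaks outside promoter regions are called distal. In the CBPi list a promoter peak and a distal peak of the same area decile were private about equally often, with a mean difference over deciles of -0.268 points (distal minus promoter). In the EZH2i list distal peaks were private more often in 9 of the 10 deciles, by a mean of 7.30 points. In its lowest decile 17.01% of promoter peaks were private (13.4 to 21.4), against 39.5% of all peaks.

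**Figure D1:**
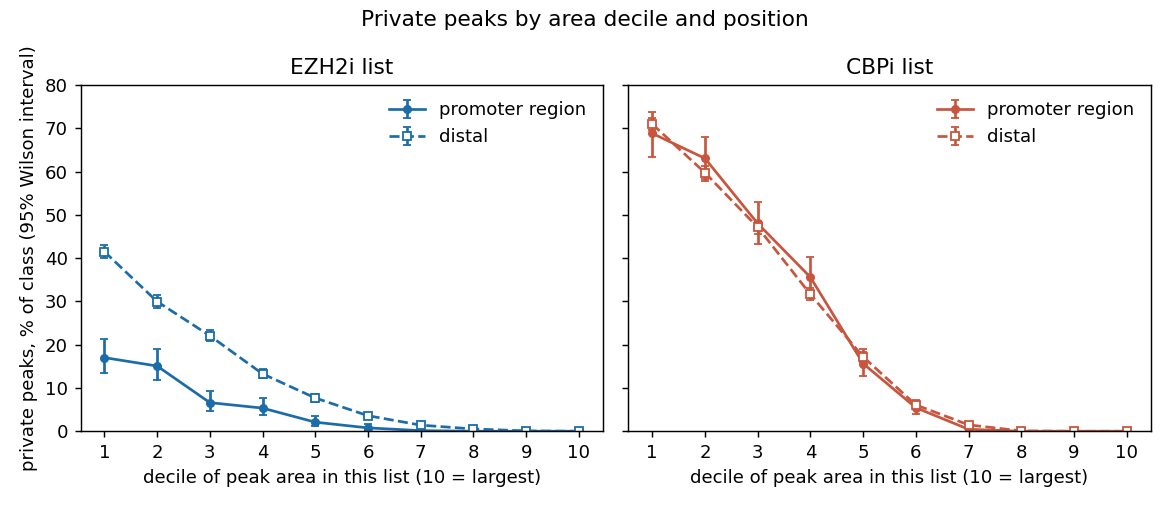
Share of private peaks (%, y axis, with 95% Wilson intervals) by decile of peak area within each list (x axis, 10 = largest), for promoter-region peaks (filled circles) and distal peaks (open squares). Both lists have private peaks at low area and almost none from decile 8 upward; promoter and distal peaks overlie each other in the CBPi list and lie apart in the EZH2i list.

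The lists also differed by the gene content of the chromosome region. The genome was divided into windows of 5 Mb, and these into 5 groups of 119 or 120 by their number of protein-coding genes. In the windows with the fewest genes (0 to 13), 24.6% of EZH2i peaks were private (23.4 to 25.9), and the share declined group by group to 5.70% (5.31 to 6.11) in the windows with the most (47 to 201). Shares expected from peak area alone went only from 13.4% to 9.74%. In the CBPi list the shares went the other way, from 19.7% (18.6 to 20.9) to 24.6% (23.9 to 25.3), where area alone gave 27.4% and 20.4%. For distal peaks of lists of equal number the lines cross: EZH2i went from 36.1% to 13.3% and CBPi from 16.02% to 26.6%. Without chromosome 7, the EZH2i shares went from 21.5% to 5.57%. GC content of the peaks was not analysed here, and gene-rich regions differ in base composition, so the part of base composition in this pattern was not tested.

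**Figure D2:**
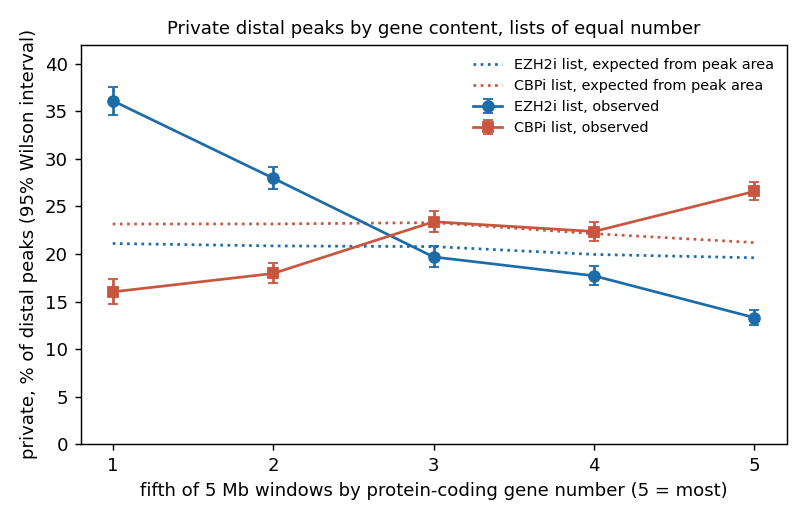
Share of private peaks among distal peaks (%, y axis, 95% Wilson intervals) in 5 groups of 5 Mb windows ordered by protein-coding gene number (x axis, 5 = most), with both inhibitor lists at the same number of peaks; dotted lines give the share expected from peak area. The EZH2i share declines from 36.1% to 13.3% and the CBPi share climbs from 16.02% to 26.6%.

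Several chromosomes showed the same contrast, but not all. With lists of equal number, the EZH2i share of private peaks was highest on chromosome 7, at 27.7% against 13.1% for CBPi. Chromosomes 13 (23.7% and 14.1%), 18 (20.9% and 15.3%), 4 (20.4% and 15.1%) and 9 (19.97% and 14.3%) followed. On the gene-dense chromosomes 17 and 19 the EZH2i shares were 6.33% and 4.31%, and the CBPi shares 20.9% and 16.8%. The CBPi share was highest on chromosomes 22 and 20, both at 23.1%, where EZH2i had 14.8% and 9.05%. It was lowest on chromosome 16 (13.0%), which has 854 protein-coding genes, against 338 on chromosome 13 and 270 on chromosome 18.

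**Figure D3:**
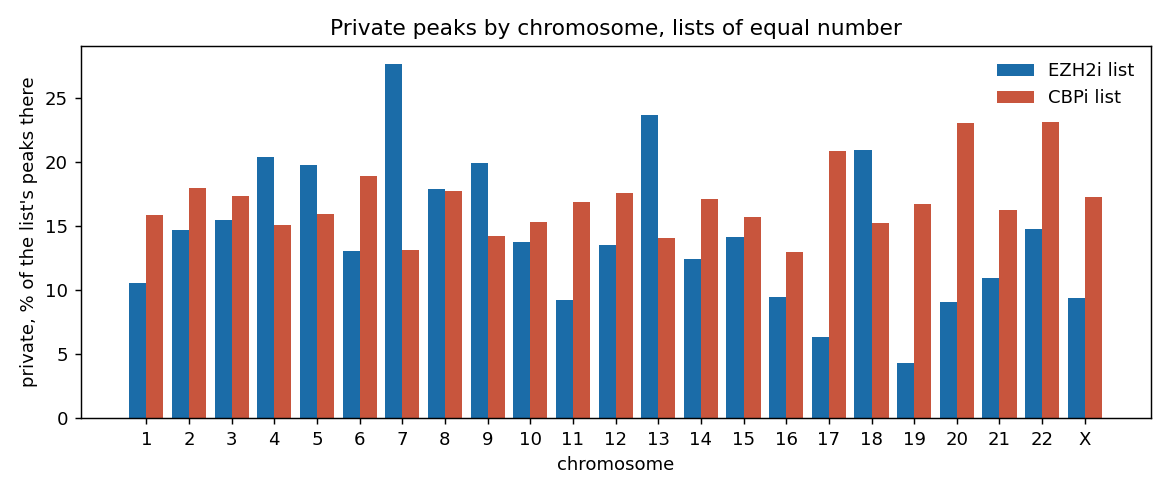
Private peaks as a share of each list's peaks on a chromosome (%, y axis) for chromosomes 1 to 22 and X (x axis), with both inhibitor lists at 41086 peaks. The EZH2i bar is tallest on chromosome 7 (27.7%) and shortest on chromosome 19 (4.31%); CBPi bars stay between 13.0% and 23.1%.

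A single block of chromosome 7, from 45 to 55 Mb, held 10.1% of all private EZH2i peaks. It has 27 protein-coding genes, among them IKZF1, a lymphoid transcription factor gene, DDC, which encodes the decarboxylase of dopamine and serotonin synthesis, GRB10, an adaptor of insulin and IGF receptors, and COBL, an actin nucleator. The lists had 963 (EZH2i), 566 (CBPi), 882 (vehicle) and 1019 (FSK) peaks there. As a share of each list that is 2.34% (EZH2i), 1.20% (CBPi), 1.45% (vehicle) and 1.99% (FSK), so the EZH2i and FSK lists were the denser and the vehicle list lay nearer to CBPi. Of the EZH2i peaks 463 were private (48.1%, 44.9 to 51.2), and of these 218 were in the vehicle list and 268 in the FSK list. Of the CBPi peaks 53 were private (9.36%). Outside the block the shares were 10.3% and 23.6%. Copy number, which sets how many fragments a region gives, was not measured here, and its part in any regional difference was not tested.

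Some single windows of 5 Mb had shares as high or higher, on fewer peaks. Private EZH2i peaks took their highest shares on chromosome 8 from 110 to 115 Mb (21 of 36 peaks, 58.3%), the 50 to 55 Mb part of the chromosome 7 block (251 of 450, 55.8%), chromosome 12 from 20 to 25 Mb (53 of 113, 46.9%) and chromosome 5 from 25 to 30 Mb (28 of 63, 44.4%). The CBPi list had its highest on chromosome 22 from 45 to 50 Mb (24 of 44, 54.5%), chromosome 12 from 115 to 120 Mb (37 of 83, 44.6%), chromosome 6 from 45 to 50 Mb (23 of 53, 43.4%) and chromosome 3 from 150 to 155 Mb (34 of 80, 42.5%). In each of these 4 CBPi windows at most 2 EZH2i peaks were private. The 10 windows with the most private peaks held 20.8% of all private EZH2i peaks and 5.82% of all private CBPi peaks, so the EZH2i ones were the more clustered. Runs of at least 5 private peaks with no shared peak between them numbered 68 in the EZH2i list and 43 in the CBPi list. The longest had 18 peaks over 113 kb of chromosome 7 (52505970 to 52618649), with no protein-coding gene. The longest CBPi run had 10 peaks on chromosome 22 (44382242 to 45285075), around PHF21B, NUP50, PRR5 and UPK3A.

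The vehicle and FSK lists, which took no part in choosing the peaks, held most private peaks of both drugs. Of private EZH2i peaks 63.6% were in the vehicle list (62.2 to 65.0), and of private CBPi peaks 65.2% (64.3 to 66.1). The FSK list held 51.8% (50.4 to 53.3) and 44.9% (44.0 to 45.9). For shared peaks the figures were 96.7% and 96.6% in vehicle and 90.4% for both drugs in FSK. Only 1199 private EZH2i peaks (26.1%) and 2608 private CBPi peaks (23.6%) were in neither. Seen from the vehicle list of 61016 peaks, 57.5% had a counterpart with both drugs, 4.80% with EZH2i only, 11.9% with CBPi only and 25.8% with neither. Most private peaks of 1 drug were thus vehicle regions missing from the list of the other drug.

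The 1672 private EZH2i peaks that the vehicle list lacked differed in the gene content of their windows from the 2919 it held. Of the former 27.6% were in the most gene-rich group of windows, and of the latter 9.73%, against 31.9% of all EZH2i peaks. In the most gene-poor group the shares were 20.2% and 29.0%, against 11.7%. Chromosome 7 from 50 to 55 Mb held the most peaks of both sets, 130 of the former and 121 of the latter. The window on chromosome 9 from 135 to 140 Mb, with 90 genes, had 124 private EZH2i peaks among 317, of which 2 were in the vehicle list. On chromosome 5 from 0 to 5 Mb, 69 of 174 EZH2i peaks were private and 14 of them were in vehicle. For CBPi the corresponding contrast in the most gene-rich group was between 42.6% of the 3840 peaks missing from vehicle and 32.5% of the 7205 present in it. Of all CBPi peaks 34.3% lay there.

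The individual private peaks of largest area were moderate in size. The largest in the EZH2i list lay on chromosome 12 (29790828 to 29793710, hg38), 7535 bp from TMTC1, with 12.9% of the list larger. Next in size, 2 lay on chromosome 7 inside CNTNAP2 (147170356 to 147171397), a neuronal adhesion gene, and at 125467840 to 125469142, 538604 bp from POT1. A peak on chromosome 9 (136623273 to 136626626), 33625 bp from EGFL7, was absent from the vehicle list and present in the FSK list, and a CBPi peak lay 947 bp away. The other 4 were on chromosome 3 (86757306 to 86758940), chromosome 15 (20348321 to 20351217) and, as a pair, chromosome 7 (49281407 to 49282624 and 49228593 to 49229696). Of the 8, 7 were in the vehicle list and 7 in the FSK list.

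The largest private CBPi peak lay on chromosome 2 (238546942 to 238549582), and 21.8% of CBPi peaks had a larger area. Others were inside BUB1 on chromosome 2 (110674631 to 110675486), a mitotic checkpoint kinase gene, inside NPAS2 on the same chromosome (100882737 to 100883653), a clock gene, and inside SLC25A37 on chromosome 8 (23540910 to 23541944), a mitochondrial iron carrier gene. The remaining 4 lay 23017 bp from ECHDC1 (chromosome 6, 127365999 to 127366958), 11018 bp from XAB2 (chromosome 19, 7618370 to 7619503), 5758 bp from ZNF184 (chromosome 6, 27478521 to 27480030) and 48982 bp from OR4D9 (chromosome 11, 59560029 to 59561166). All 8 were in the vehicle list and 7 in the FSK list.

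Peaks present with both drugs were compared by rank. In 34620 pairs a peak of each list overlapped only the other, which takes in 84.3% of EZH2i and 73.4% of CBPi peaks, and each list was ranked by area within these pairs from 0 (smallest) to 100 (largest). The ranks ran close together: Spearman's rho across pairs was 0.901, given as a description since peaks are not replicates, and 67.5% of pairs lay within 10 points. A pair ranked more than 25 points higher with CBPi in 1165 cases (3.37%) and more than 25 points lower in 1306 (3.77%). The CBPi peak was the wider in 68.6% of pairs, with a median of 713 bp against 630 bp.

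Ranks moved with gene content as the private peaks did. The median difference, CBPi rank minus EZH2i rank, was -3.61 points in the windows with the fewest genes and 2.52 in those with the most. For distal pairs alone it was -5.14 and 2.71. Chromosome 17 had the highest median (3.36 points), then chromosome 19 (2.82) and 22 (2.32), and chromosomes 18 (-2.09) and 7 (-1.53) the lowest. In the chromosome 7 block the 430 pairs had a median of -18.0. Promoter pairs had a median of 0.67 and distal pairs -0.58.

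**Figure D4:**
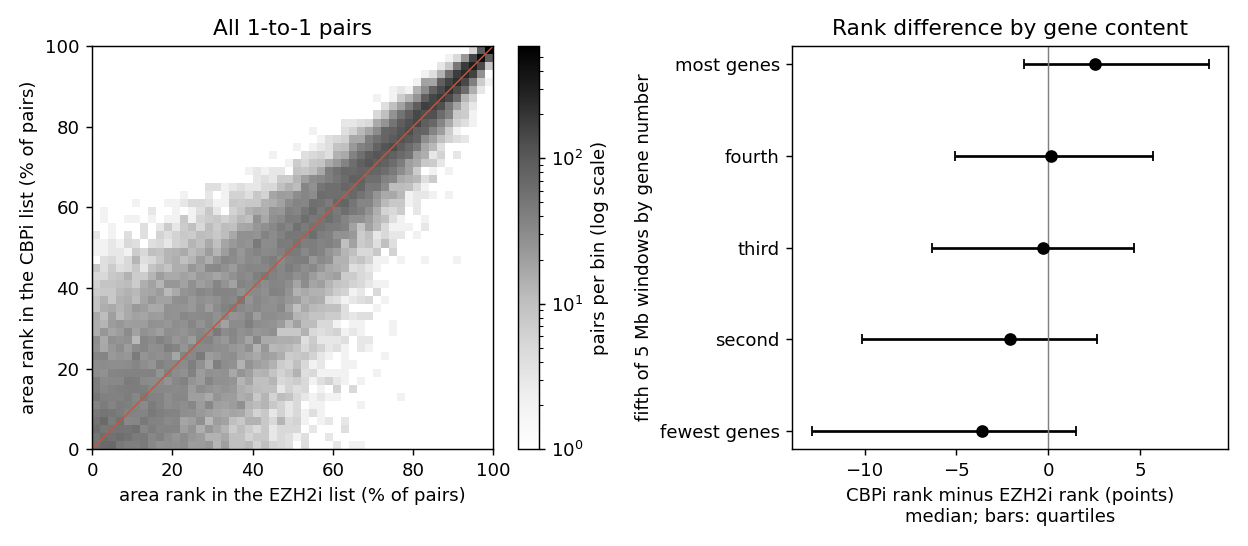
Left, area rank of the 34620 pairs in the EZH2i list (x axis, % of pairs) and in the CBPi list (y axis, % of pairs), shaded by pairs per bin on a log scale, with the line of equal rank. Right, median and quartiles of CBPi rank minus EZH2i rank (x axis, points) in 5 groups of 5 Mb windows by gene number (y axis); the median goes from -3.61 with the fewest genes to 2.52 with the most.

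The pairs with the greatest change in rank were mostly a wide peak in 1 list over a narrow one in the other. On chromosome 4 a 5152 bp EZH2i peak (1749884 to 1755035), 31328 bp from TMEM129, stood over a CBPi peak of 485 bp, and its rank was 84.1 with EZH2i and 3.42 with CBPi. The other 5 of the 6 largest downward differences were -72.2 (chromosome 2, 35390944 to 35392467), -71.0 inside ADCY1, an adenylyl cyclase gene (chromosome 7, 45681434 to 45684397), -70.9 inside RASA3 (chromosome 13, 114096005 to 114098957), -70.8 inside IKZF1 (chromosome 7, 50345955 to 50347582) and -66.2 (chromosome 7, 53359592 to 53360947). So 3 of the 6 lay in the chromosome 7 block. The largest upward difference was at chromosome 2 (EZH2i peak 238538354 to 238539162), close to the largest private CBPi peak, where the rank was 2.499 with EZH2i and 92.1 with CBPi. The other 5 upward differences lay at SCAND3 (64.5), MEF2D (62.1), BICRAL (61.3), ZNF613 (60.2) and NAXD (60.1). MEF2D is a transcription factor gene and BICRAL encodes a subunit of a BAF chromatin remodeller.

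At the level of genes, 13105 of 19970 protein-coding genes had a promoter-region peak with both drugs and 6264 with neither. With EZH2i only there were 111 (0.556%), and with CBPi only 490 (2.45%). A private peak lay there at 100 of the 111 and 469 of the 490, and at the rest the border of a shared peak moved. The vehicle list had a promoter-region peak at 55 of the 111 and 324 of the 490. At equal list length the counts were 176 and 363. Among the members of the gene lists described below, the EZH2i-only genes were IRX1 and HOXB8. The 10 CBPi-only ones were NEUROD1, EVX1, HOXA9, HOXB6, PCGF2, KAT2A, CHMP2A, FLT1, ROBO4 and CD68. The peaks at the NEUROD1 and EVX1 starts had areas of 248.5 and 226.6, below the 262.345 at which the equal-length CBPi list ends. PCGF2 encodes a subunit of Polycomb repressive complex 1 and KAT2A a histone acetyltransferase.

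The starts that differed between the drugs were poorer in CpG than those open with both. In the 300 bases from 250 before to 50 after a start, the median was 27 CpG over 14210 starts with a peak in both lists, 15 over 543 with one in the CBPi list only, 11 over 141 in the EZH2i list only, and 5 over 7117 with a peak in neither. Simple motif letters were counted on both strands of the same windows, with no correction for base composition. The AP-1 letters TGACTCA were in 6.81% of CBPi-only starts (4.98 to 9.25), 4.96% of EZH2i-only starts (2.43 to 9.89), 2.66% of starts in both, 6.51% of starts in neither and 4.02% of all. The cAMP response element, TGACGTCA, was in 1.84% (1.00 to 3.36), 0.709% (0.125 to 3.91), 2.97%, 0.871% and 2.25%, in the same order. TCF/LEF letters, CTTTGAT, through which β-catenin acts, were in 1.84%, 1.42%, 1.33%, 3.36% and 2.00%. The intervals of the CBPi-only and EZH2i-only starts overlapped for each of these motifs.

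Each peak was next given to 1 protein-coding gene, the one whose start lay nearest to the summit and no further than 100 kb. Either gene end stood in where no start was in the table used. Of 32341 assigned EZH2i peaks 7.45% were private, and of 38366 assigned CBPi peaks 22.9%. With lists of equal number the shares were 10.9% and 16.2%. Genes with an excess of private EZH2i peaks came from few places: 37 genes had at least 5 more private EZH2i than private CBPi peaks, 14 of them on chromosome 7, 10 on chromosome 9 and 5 on chromosome 5. At COBL 45 of 85 EZH2i peaks were private and 3 of 45 CBPi peaks. IKZF1 had 27 of 46 against 1 of 20, VWC2, which encodes a secreted BMP antagonist, 21 of 29 against 2 of 12, GRB10 23 of 50 against 6 of 34, and DDC 16 of 28 against 1 of 14. All 5 lie in the chromosome 7 block. RXRA on chromosome 9, the gene of the retinoid X receptor α, had 17 of 26 against 3 of 13, with 9 peaks in the vehicle list and 15 in the FSK list.

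An excess of at least 5 private CBPi peaks was found at 77 genes on 19 chromosomes. At equal list length the order of the drugs turned, with 17 such genes for CBPi and 51 for EZH2i. ZBTB7C and THSD4 each had 10 private CBPi peaks (of 25 and of 22) and no private EZH2i peak. The phosphodiesterase gene PDE4D, whose product degrades cAMP, had 9 of 31 private with CBPi and 0 of 22 with EZH2i. MKLN1 (9 of 19), FMN1 (9 of 14) and PAQR5 (8 of 15) also had none with EZH2i. These 6 lie on chromosomes 5, 7, 15 and 18.

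**Figure D5:**
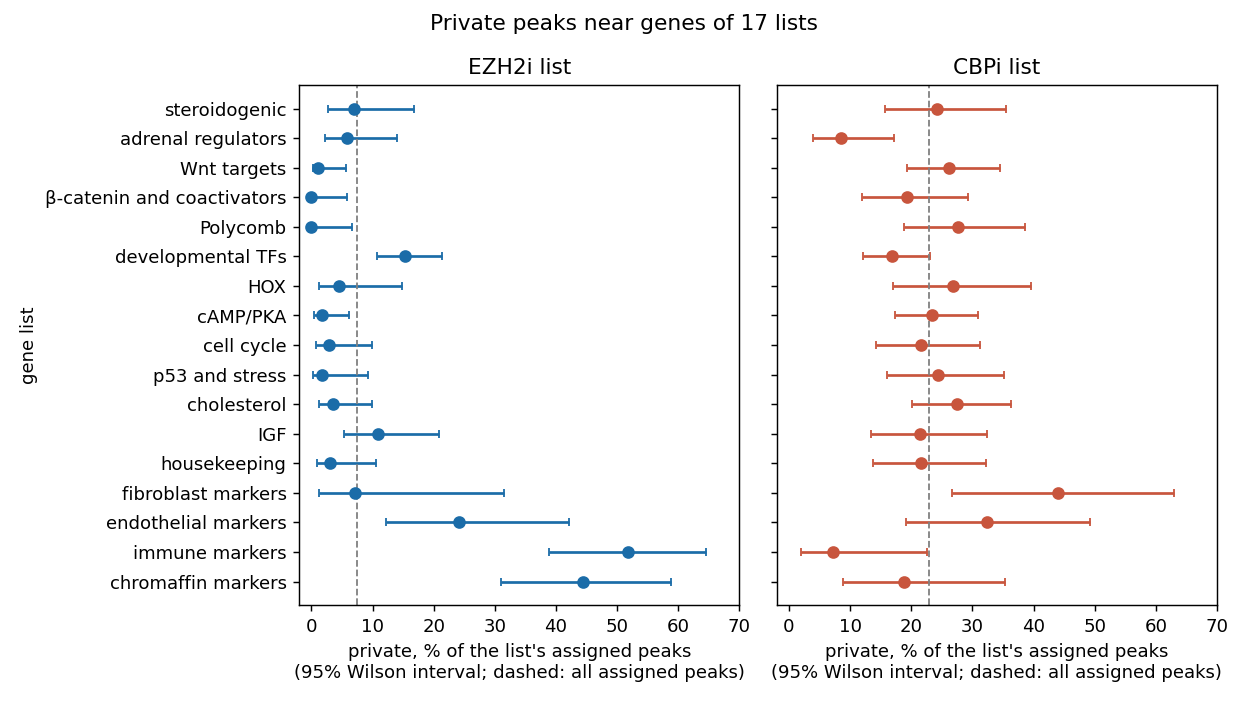
Private peaks as a share of assigned peaks (%, x axis, 95% Wilson intervals) near the genes of 17 lists (y axis), for the EZH2i list (left) and the CBPi list (right); dashed lines give the share over all assigned peaks, 7.45% and 22.9%. For EZH2i 12 of the 17 lists lie left of the dashed line, housekeeping genes included; immune and chromaffin markers lie far right of it through IKZF1 and DDC in the chromosome 7 block.

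Among genes of the Wnt/β-catenin pathway private peaks were nearly all CBPi peaks. Of the peaks near 22 Wnt target genes, 1 of 96 was private in the EZH2i list (1.04%, with 8.03 expected from peak area) and 33 of 126 in the CBPi list (26.2%, 27.8 expected). The CBPi share was near that of all assigned peaks (22.9%), the EZH2i share below its own (7.45%). All assigned EZH2i peaks were also private less often than area gave, with 2411 private and 3233 expected. For all assigned CBPi peaks the counts were 8796 and 8250. The expected counts of every gene list are to be read beside these. TBX3, a T-box factor gene, had 8 of 15 private with CBPi and 0 of 7 with EZH2i. LGR5, the R-spondin receptor gene, had 4 of 7 and 0 of 3, DKK1, a secreted Wnt inhibitor gene, 3 of 5 and 0 of 2, and AFF3 3 of 5 and 0 of 2. Of the 22 genes of β-catenin, its TCF partners and coactivators, 0 of 62 EZH2i peaks (0 to 5.83%) and 15 of 78 CBPi peaks (19.2%) were private. They included 3 of 9 at APC, 3 of 8 at BCL9, and the promoter of KAT2A. CTNNB1, CREBBP and EP300 had no private peak with either drug. With lists of equal number the Wnt target counts were 4 of 96 and 24 of 114.

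Genes of the Polycomb complexes and the H3K27 demethylases had 0 private peaks of 54 in the EZH2i list (0 to 6.64%, 3.11 expected from area) and 21 of 76 in the CBPi list (27.6%, 18.8 to 38.6, 15.6 peaks expected). All assigned peaks had private shares of 7.45% and 22.9%. EZH2 itself had 2 private of 6 peaks with CBPi and 0 of 4 with EZH2i. JARID2, a PRC2 cofactor gene, had 3 of 8 private with CBPi, AEBP2 2 of 8, CBX8 2 of 4, EPOP 2 of 3 and PCGF2 2 of 2. With lists of equal number the counts were 3 of 54 and 13 of 65. The gap between the drugs was thus smaller at equal length.

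Developmental transcription factor genes, which are common Polycomb targets, had similar private shares with the 2 drugs in the full lists. Of their peaks 27 of 177 were private with EZH2i (15.3%, 10.7 to 21.3, 20.6 peaks expected from area), spread over 19 of 60 genes, and 30 of 178 with CBPi (16.9%, 12.1 to 23.04, 43.7 peaks expected). The EZH2i share was above that of all assigned peaks and the CBPi share below it, and with lists of equal number the counts were 34 of 177 and 17 of 156. IRX1, an Iroquois homeobox gene on chromosome 5, had 3 of 5 private EZH2i peaks, with a private peak at its promoter, and 0 of 2 private CBPi peaks. BARX1 had 2 of 9 and 1 of 7, HAND2 1 of 4 and 2 of 4. NEUROD1 and EVX1 each had 0 of 2 with EZH2i and 2 of 4 with CBPi. The shared pairs near these genes had a median rank difference of -2.60 points, against 0.62 over all assigned pairs. In the HOX clusters, also known Polycomb targets, 2 of 45 EZH2i and 15 of 56 CBPi peaks were private, and the median of their 39 pairs was 7.47 points.

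Near the 19 steroidogenic genes 4 of 57 EZH2i peaks (7.02%) and 17 of 70 CBPi peaks (24.3%) were private, both near the share of all assigned peaks. CYP11A1 had 2 of 6 and 4 of 8. SCARB1, the gene of the HDL receptor, had 1 of 14 and 3 of 16, and CYP11B2, the aldosterone synthase gene, 0 of 1 and 3 of 4. SOAT1, which esterifies cholesterol, had 0 of 2 and 3 of 5, and FDX1, an electron carrier of mitochondrial P450 enzymes, 0 of 2 and 2 of 4. Of peaks near the adrenal regulators, 4 of 69 were private in the EZH2i list (5.80%, near the 7.45% of all assigned peaks). In the CBPi list 6 of 71 were (8.45%, 3.93 to 17.2), below the 22.9% of all, with 10.2 peaks expected from area. At equal list length the regulator counts were 6 of 69 (EZH2i) and 5 of 68 (CBPi). NR5A1 had 0 of 8 and 1 of 9, DLK1 0 of 8 and 2 of 10, NR5A2 0 of 2 and 1 of 3, and NR4A2 1 of 4 and 0 of 3.

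The cAMP pathway genes had 2 of 115 private EZH2i peaks (1.74%, 11.4 peaks expected from area) and 34 of 145 private CBPi peaks (23.4%). Over all assigned peaks the shares were 7.45% and 22.9%. Besides PDE4D, the kinase gene SGK1 had 0 of 2 and 4 of 6, KLF4 1 of 6 and 3 of 8, PDE4B 1 of 7 and 3 of 9, and DUSP5 0 of 5 and 3 of 8. Genes of cholesterol supply had 3 of 84 (3.57%) and 31 of 113 (27.4%). SREBF1, which encodes the sterol-sensing factor SREBP1, had 0 of 9 and 6 of 15. IGF pathway genes had 7 of 64 (10.9%) and 15 of 70 (21.4%), with 3 of 14 and 4 of 15 at IGFBP3 in the chromosome 7 block. At equal list length the order of the drugs turned for the IGF genes, with 13 of 64 (20.3%) and 7 of 56 (12.5%). Cell cycle genes had 2 of 70 (2.86%) and 19 of 88 (21.6%), and p53 and stress genes 1 of 57 (1.75%) and 18 of 74 (24.3%). Housekeeping genes had 2 of 65 and 16 of 74. The housekeeping shares (3.08% and 21.6%) were of the same order as those of the Wnt, cAMP and cholesterol lists.

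Marker genes of other cell types had few peaks, and their private EZH2i peaks sat at single genes. Of the immune markers 28 of 54 EZH2i peaks were private, 27 of them at IKZF1, and without the chromosome 7 block the count was 1 of 8. Of the chromaffin markers 20 of 45 were private, 16 at DDC, and 4 of 17 without the block. All 7 private EZH2i peaks near endothelial markers, of 29, were at EGFL7. At equal list length the endothelial counts were 9 of 29 (31.0%) with EZH2i and 7 of 27 (25.9%) with CBPi. Fibroblast markers had 1 of 14. Those EZH2i shares are 51.9%, 44.4%, 24.1% and 7.14% for immune, chromaffin, endothelial and fibroblast markers, against 7.45% of all assigned peaks. In the CBPi list the counts, in the same order, were 2 of 28 (7.14%), 6 of 32 (18.8%), 11 of 34 (32.4%) and 11 of 25 (44%, 26.7 to 62.9). Over all assigned CBPi peaks the share was 22.9%. FLT1 and ROBO4, both endothelial receptor genes, and CD68, a macrophage gene, had a promoter-region peak with CBPi only, as did 2.45% of all genes.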

How the data were processed

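The data are 4 peak lists from ATAC-seq of NCI-H295R, 1 list for the 2 libraries of each group, on hg38. The submitters' processing notes name Bowtie2, Genrich and deepTools 2.0 without roles or settings. Not given in the sources used here are the way libraries were combined, reads filtered or shifted for Tn5, and the calling threshold. The authors deposited for each peak a signal value (an area of significance), a score, a −log10 p and a summit position. The smallest area in each list was 200.0. The score the authors deposited equals 1000 times area over width with a cap of 1000, to within 1, for 100.0% of peaks, and was not used further. Depth is unknown, so areas were ranked within a list and never compared between lists. Every column of values belonged to a group (0 without one).

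Members and gene lists were chosen with earlier results of these data known. Genes (19970 protein-coding) and starts came from RefSeq tables of GRCh38.p14, which gave a start for 15811 genes; for the other 4159 either gene end stood in. Of 417 list genes 416 matched. Expected shares came from 20 bins of area in a list's own peaks. Windows needed at least 50 peaks over both inhibitor lists. The text names the 8 private peaks of largest area per list, 6 pairs and 6 genes at each extreme, 4 windows per list and up to 5 members per gene list, plus the drug targets, CTNNB1 and NR5A1; genes with a promoter-region peak in 1 list only came first, and some members that the rule selects are left out. Python 3.11.15, pandas 2.3.3, numpy 2.4.6 and scipy 1.17.1 were used, and the overlap, pairing and interval steps were tested on simulated data. Replicates could not be compared, so no p-value was computed. Overlap rules, list length, ranking, distances and assignment were varied.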

Additional observations from a re-analysis of the deposited data

How the results depend on the processing

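No paired analysis was possible because each group has 1 list for both libraries, and no library could be left out for the same reason. Of the values on which the comparisons rest, 39 under the alternatives stayed (counts within 1.5 times, shares inside their 95% interval, rho to 2 decimals) and 23 moved. No single value changed sign, but the order of the drugs turned at equal number for genes with at least 5 more private peaks (51 for EZH2i against 17 for CBPi, from 37 against 77) and for the share in vehicle. At equal number it also turned for private shares of the developmental, adrenal regulator, IGF and endothelial lists and of some chromosomes. With peaks of at least 2 times the smallest area, 1986 private EZH2i peaks were counted. At 20000 peaks per list the private counts were 2201 (EZH2i) and 2321 (CBPi), at 10000 they were 914 and 939, as fewer peaks enter. The rho of ranks was 0.797 by area over width and 0.880 by summit p. The promoter share of private EZH2i peaks was 6.86% at 2.5 kb and 3.16% at 500 bp. For CBPi it was 13.9% and 5.47%, 9.20% with lists of equal number and 9.11% with gene ends for all genes. Equal number gave 70.1% (EZH2i) and 69.6% (CBPi) of private peaks in vehicle and 56.1% and 50.5% in FSK. It also gave 176 EZH2i-only promoter genes and 221 windows with the higher share in EZH2i, against 81 of 536. Without the chromosome 7 block 23 genes, not 37, had at least 5 more private EZH2i peaks. The EZH2i share in gene-rich minus gene-poor windows was -18.9 points, -23.2 at equal number and -15.9 without chromosome 7. For CBPi it was 4.85, with 4.46 and 4.32. Of 17 gene lists, 14 (EZH2i) and 11 (CBPi) kept their side of the share of all assigned peaks in all 4 alternatives tried. The cause of these shifts was not tested. The runs without chromosome 7 or its block, with gene ends for all genes, and of windows at equal number were chosen after seeing the data.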
